A study of Homo sapiens with 20 samples.

Results

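The H3K4me3 mark was followed at the start sites of 5 genes that build and regulate mitochondria, PPARGC1A, PPARGC1B, TFAM, ESRRA and NRF1, in cells of WM164, a human melanoma line with a mutant BRAF kinase. A peak was taken as belonging to a gene when it lay within 5 kb of its GRCh37 transcription start site (TSS). The start sites were at base 23891700 of chromosome 4 for PPARGC1A, 149109864 of chromosome 5 for PPARGC1B, 60144903 of chromosome 10 for TFAM, 64073044 of chromosome 11 for ESRRA and 129251555 of chromosome 7 for NRF1. The rule used position alone, with no measured value. It found 109 of the 306884 deposited peaks, between 7 and 17 in each library. After merging over libraries these fell into 6 of 31428 marked regions, 1 per gene except for ESRRA with 2. All 6 had a peak in at least 2 libraries, the filter that left 23153 regions for testing.

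Of 20 samples in the study, 10 H3K4me3 libraries have a list of peaks, 2 in each of 5 groups, and 10 inputs were not analysed here. Resistant cells were kept in 50 nM dabrafenib, an inhibitor of mutant BRAF, for more than 90 days. Colonies were cells that had grown in 50 nM dabrafenib for 45 days. NRAS Q61K cells overexpressed an activated form of NRAS, a RAS protein upstream of BRAF, and GFP cells overexpressed green fluorescent protein. Parental cells received DMSO for 3 days before extraction. All groups are the same BRAF-mutant line. Fixation is stated for the resistant, colony and parental cells alone. Not stated in the labels are the origin of the resistant cells (the colonies or the parental line), how the transgenes were driven, whether the lines are clones, and whether replicates were separate cultures. The p-values therefore measure only the spread between these libraries, which may be technical.

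PGC-1α, the product of PPARGC1A, and PGC-1β, the product of PPARGC1B, are coactivators: they bind no DNA themselves and raise the activity of transcription factors that do. Their partners include the orphan nuclear receptor ERRα, encoded by ESRRA, and nuclear respiratory factor 1, encoded by NRF1, which switch on nuclear genes of the respiratory chain and TFAM, the factor that packs and transcribes mitochondrial DNA. In a subset of melanomas PPARGC1A is driven by MITF, the melanocyte master regulator, and BRAF inhibition is known to raise that arm. H3K4me3 sits on nucleosomes around the start sites of active genes. The width of a peak is not a level of RNA, and none was measured here.

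The promoters of TFAM and ESRRA are shown because, in the RefSeq promoter table, these 2 of 5 members have a single entry at the gene's own start. That table is on the build GRCh38.p14 and was not aligned to the peak coordinates. Capitals mark the GC box (GGGCGG, on either strand), the site of SP1-type factors, and the NRF1 core (GCATGCGC, on either strand). TFAM is at chr10:58385160-58385459 on the plus strand and ESRRA at chr11:64305274-64305573 on the plus strand.
TFAM: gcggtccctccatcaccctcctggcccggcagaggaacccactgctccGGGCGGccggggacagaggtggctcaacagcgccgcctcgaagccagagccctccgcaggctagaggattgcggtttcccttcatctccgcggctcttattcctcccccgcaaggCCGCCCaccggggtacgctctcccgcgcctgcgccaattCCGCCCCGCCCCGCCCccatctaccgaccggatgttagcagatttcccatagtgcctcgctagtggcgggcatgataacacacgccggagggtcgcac
ESRRA: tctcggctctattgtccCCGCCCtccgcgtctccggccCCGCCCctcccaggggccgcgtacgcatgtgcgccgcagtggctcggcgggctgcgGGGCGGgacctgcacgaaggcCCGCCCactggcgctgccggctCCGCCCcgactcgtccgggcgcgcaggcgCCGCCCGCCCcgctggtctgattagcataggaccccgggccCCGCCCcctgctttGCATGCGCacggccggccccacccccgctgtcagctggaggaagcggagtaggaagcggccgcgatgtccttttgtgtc
The TFAM stretch held 5 GC boxes, whose first bases lay at −202, −87, −48, −43 and −38 from the RefSeq start, the last 3 overlapping. It held no match to the NRF1 core. The ESRRA stretch held 8 GC boxes and, at −29, 1 match to the NRF1 core. Of the 35116 promoters in the table, 45.0% held a GC box and 3.05% the NRF1 core. The MITF-type E-box CATGTG was found once in ESRRA, at −187, and in 11.1% of all promoters. Neither stretch held AAGGTCA, the half-site of estrogen-related receptors, which 3.92% of promoters held. Also searched and absent from both were the E-box CACGTG (7.26% of promoters), the ETS core CCGGAAG (10.3%) and the TATA box TATAAA (11.5%). So were the cAMP response element TGACGTCA (1.85%) and its shorter form TGACG (24.6%). A match is a description of the letters, and the absence of one says nothing about the factor. The PPARGC1A entries could not be tied to the start site used here.

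The 10 libraries differed in how much they marked. Peaks on the autosomes and X numbered 19111 to 45376 per library. The shortest peak was 255 to 284 bp long in the 4 drug-exposed libraries and 142 to 202 bp in the other 6, so a short weak peak could be listed in the unexposed libraries alone. The lists hold no read counts. For the tests, bases under peaks per region were put on a log2 scale after adding 200 bp, and the median of each library over the 12087 regions marked in all 10 was set to a common value; these medians had differed from it by −0.19 and −0.22 (log2) in the resistant libraries and by −0.07 to 0.13 in the other 8. With 2 libraries against 2, an exact permutation test cannot go below p = 0.333, so limma across all regions was used, and adjusted p-values are over all 23153 of them.

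All 5 genes carried H3K4me3 in every library. The start site itself lay under a peak in all 10 libraries at PPARGC1A, PPARGC1B, TFAM and NRF1, and in 8 of 10 at ESRRA. The bases marked in all 10 libraries were 66.0% of those marked in any library at PPARGC1B, 54.9% at NRF1, 54.2% at TFAM, 40.2% at PPARGC1A and 36.4% at ESRRA. The map of peaks shows where the libraries part: at PPARGC1A in the resistant cells, and at ESRRA around the start site in the colonies.

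**Figure D1:**
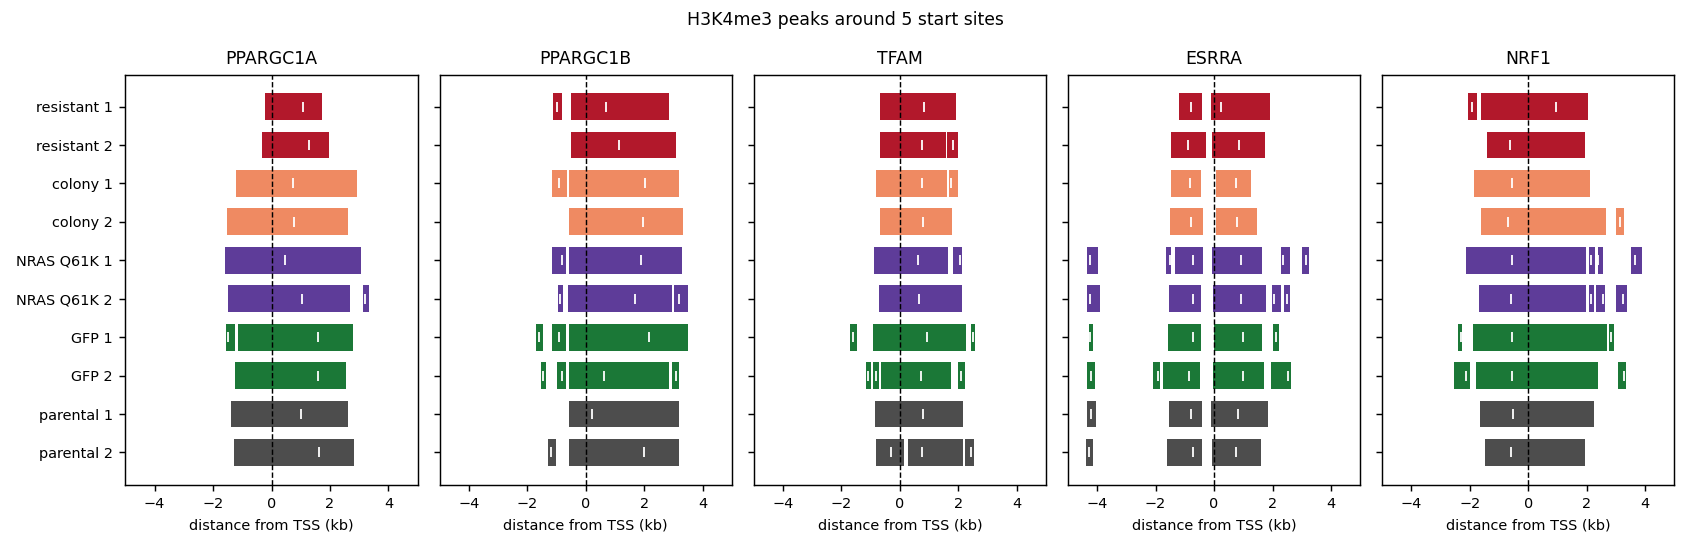
H3K4me3 peaks within 5 kb of 5 start sites, with 1 row per library and the distance from the TSS in kb along the x axis, downstream to the right. White ticks mark summits and the dashed line the TSS; the PPARGC1A bars of both resistant libraries end 1736 and 1955 bp downstream of the TSS, short of those of the other 8 libraries.

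PPARGC1A, the inducible coactivator, had a narrower H3K4me3 domain in resistant cells than in parental cells or colonies. Peaks covered 1958 and 2282 bp around its start in the resistant libraries, 4149 and 4124 bp in the colony libraries, 4663 and 4403 bp in the NRAS Q61K libraries, 4271 and 3804 bp in GFP cells, and 4011 and 4091 bp in the parental libraries. Both resistant libraries lay below the other 8 with no overlap in uncentred bases. The colony and parental libraries did not overlap either, at a log2 change of 0.00. The share of all regions that separate in this way was not counted, so non-overlap is a description here and below. The resistant mean was 2120 ± 229 bp, which is 52.3% of the parental mean of 4051 ± 56.6 bp and 51.3% of the colony mean of 4136 ± 17.7 bp (SD, n = 2 each). After centring, resistant cells fell below parental cells by 0.68 on the log2 scale (SE 0.09, limma adjusted p = 0.000925), a difference larger than the spread between replicates. Against the colonies the fall was again 0.68 (SE 0.09, limma adjusted p = 0.000987). Without centring the log2 change was −0.88 against parental cells and −0.91 against the colonies. Both comparisons use the same resistant libraries.

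The narrowing of PPARGC1A came off both sides of its domain and left the start site marked. The strongest peak ran from −221 to 1736 bp in resistant 1 and from −326 to 1955 bp in resistant 2, against −1231 to 2917 bp in colony 1, −1522 to 2601 bp in colony 2, −1383 to 2627 bp in parental 1 and −1273 to 2817 bp in parental 2. A stretch of 947 bp upstream, from −1273 to −327, was under a peak in both parental libraries and neither resistant one. Downstream the same held for 672 bp, from 1956 to 2627. The 1958 bp marked in resistant 1 were also marked in all other libraries. The region was 4:23888376-23893293 on GRCh37, where the gene is read on the minus strand.

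The PPARGC1A peak of resistant cells was also low in height within its own library. The deposited fold over background at its summit, the authors' value, was 6.58 and 6.89 in the resistant libraries, the lowest of the 5 genes in each. It was also the lowest of the 5 in GFP 1, at 12.83, and parental 2, at 11.13, and in parental 1, at 12.27, ESRRA alone was lower, so the order alone does not set resistant cells apart. The deposited fold and p-value of each peak imply a whole number of reads over its summit, which could be solved for 109 of 109 peaks within 0.0005 in −log10 p. At PPARGC1A that number was 41 and 40 in the resistant libraries, 69 and 73 in the colony libraries, 85 and 71 in the NRAS Q61K libraries, 66 and 68 in GFP cells, and 84 and 59 in the parental libraries. Set against the median of the other 4 genes in the same library, it stood at 54.7% and 55.6% in the resistant libraries and between 94.4% and 123.0% in the other 8. PPARGC1A had the highest fold of the 5 genes in both colony libraries, at 12.88 and 14.48, and in NRAS Q61K 1, at 17.66. These are descriptions within each list, with no test. Height and width belong to the same called peak, so the low height is not independent of the narrowing. Whether the lower height alone gives the shorter peak was not tested.

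**Figure D2:**
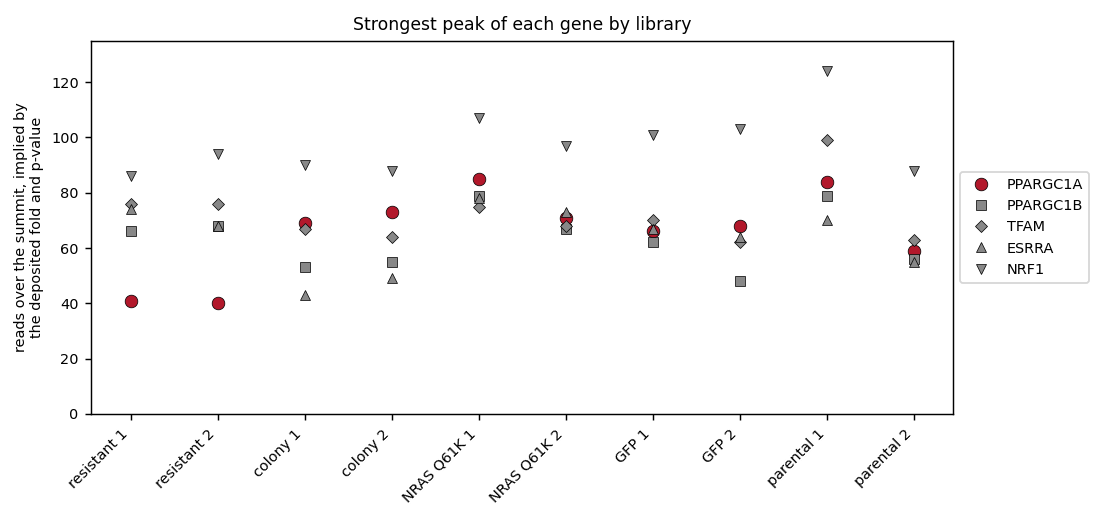
Reads over the summit of each gene's strongest peak, as implied by the deposited fold and p-value, on the y axis for each library on the x axis. Red circles are PPARGC1A and grey symbols the other 4 genes; in both resistant libraries PPARGC1A, at 41 and 40, lies below the other 4, which start at 66 and 68.

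Many other regions were narrower in resistant cells. Of all 23153 regions tested, 4779 (20.6%) were called narrower in resistant than in parental cells, and 5001 (21.6%) had a change as low as that of PPARGC1A or lower. Of the 12087 regions marked in all 10 libraries, 1504 (12.4%) were called narrower, and 477 (3.95%) had a change that low. In resistant against colony cells 2662 (11.5%) of all regions tested were called narrower. In that comparison 2045 (8.83%) had a change as low as that of PPARGC1A or lower. PPARGC1A in colonies did not differ detectably from parental cells, with a log2 change of 0.00 (SE 0.09, limma adjusted p = 0.983).

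Oncogene and transgene expression left no called change at PPARGC1A. The NRAS Q61K mean of 4533 ± 184 bp was above the GFP mean of 4038 ± 330 bp (SD, n = 2 each), and the libraries did not overlap. The log2 change was 0.21 (SE 0.09) with a limma adjusted p of 0.283. GFP cells against parental cells gave −0.13 (SE 0.09, limma adjusted p = 0.558).

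PPARGC1B, the related coactivator whose gene also hosts the microRNA gene MIR378A, kept a broad domain in every group. Peaks covered 3665 and 3602 bp in the resistant libraries, 4268 and 3878 bp in the colony libraries, 4345 and 4201 bp in the NRAS Q61K libraries, 4795 and 4139 bp in GFP cells, and 3774 and 4055 bp in the parental libraries. Both resistant libraries lay below the other 8, the nearest of which was parental 1. After centring, resistant against parental cells gave a log2 change of 0.10 (SE 0.09, limma adjusted p = 0.516) and resistant against colony cells 0.07 (SE 0.09, limma adjusted p = 0.701), while without centring both were below 0, at −0.10 and −0.16. No other comparison passed the threshold: the change was 0.03 in colony against parental cells, −0.01 in NRAS Q61K against GFP cells and 0.06 in GFP against parental cells (SE 0.09 each).

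The upstream edge of the main PPARGC1B peak was nearly fixed. It lay at −512 and −501 bp in the resistant libraries, at −587 and −556 bp in the colony libraries, and between −595 and −585 bp in the 6 unexposed libraries. The upstream stretch marked in both parental libraries and neither resistant one was 74 bp long at PPARGC1B and, as given above, 947 bp long at PPARGC1A. The difference between the 2 genes was not tested.

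ESRRA, the gene of ERRα, was the member with the most broken domain. Peaks covered 2826 and 2982 bp in the resistant libraries, 2190 and 2542 bp in the colony libraries, 3809 and 3842 bp in the NRAS Q61K libraries, 3126 and 4203 bp in GFP cells, and 3365 and 3101 bp in the parental libraries. The colonies were lowest and overlapped no other group. A stretch of 177 bp, from −293 to −117, was under a peak in no library, and marked stretches stood on either side of it. In both colony libraries the gap was wider: 132 bp from −63 to 68, which hold the start site, lay under a peak in parental 1 and 2 but not in colony 1 or 2.

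The ESRRA region around the start was among the 2540 regions, of 23153 tested, called wider in resistant cells than in colonies. It had a change at least as high as 90.2% of the regions tested. Its bases, without those of the separate upstream region, were 2826 and 2982 bp in the resistant libraries against 2190 and 2542 bp in the colony libraries, a log2 change of 0.50 (SE 0.13, limma adjusted p = 0.0235). This call was lost without centring (log2 change 0.28, limma adjusted p = 0.162) and without resistant 1, resistant 2 or colony 1 (limma adjusted p = 0.0587, 0.115 and 0.115). Colony against parental cells gave −0.34 (SE 0.13, limma adjusted p = 0.108) and resistant against parental cells 0.16 (SE 0.13, limma adjusted p = 0.429), or −0.03 without centring. In colony 1 the peaks on both sides of the start were equally strong, with summits at −829 and 743 bp and 43 implied reads each. In colony 2 the upstream peak was the stronger, with 49 reads at −791 bp against 42 at 800 bp. In the other 8 libraries the strongest summit lay downstream, at 225 to 998 bp. In both colony libraries the strongest ESRRA peak had the fewest implied reads of the 5 genes.

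A second ESRRA region about 4 kb upstream, at 11:64068673-64069138 on GRCh37, was listed in the 6 unexposed libraries and in none of the 4 drug-exposed ones. It covered 0 and 0 bp in the resistant libraries, 0 and 0 bp in the colony libraries, 399 and 450 bp in the NRAS Q61K libraries, 147 and 266 bp in GFP cells, and 293 and 217 bp in the parental libraries. The region passed the filter, a peak in at least 2 libraries, only through the unexposed libraries, so its direction in the drug comparisons was fixed. The limma calls against parental cells (adjusted p = 0.0069 for colony and 0.0133 for resistant cells) are therefore not a result about it. The resistant call was lost without resistant 1 or without resistant 2 (limma adjusted p = 0.0749 and 0.0698). The peaks were weak, with a deposited −log10 q of 5.19 to 10.34, and one parental peak, at 217 bp, was shorter than the shortest peak that any drug-exposed library listed. The part of this length limit in the result was not tested.

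NRF1, the second DNA-binding partner, had the most implied reads at the summit of the 5 genes in every library, between 86 and 124, beside an implied background of 4.84 to 9.09. By the deposited fold it was first of the 5 only in resistant 2 and last in NRAS Q61K 1. Peaks covered 3932 and 3351 bp in the resistant libraries, 3955 and 4552 bp in the colony libraries, 4812 and 4533 bp in the NRAS Q61K libraries, 4872 and 4969 bp in GFP cells, and 3902 and 3418 bp in the parental libraries. Both transgene groups lay above the parental and resistant libraries with no overlap. For NRAS Q61K this did not hold for the strongest peak alone. That peak was 4085 and 3681 bp long in the NRAS Q61K libraries and 3902 and 3418 bp in the parental ones, which overlap. In GFP cells it was 4576 and 4180 bp long, above the parental and the resistant libraries, the latter at 3634 and 3351 bp. GFP against parental cells gave the largest of its 5 changes, 0.29 (SE 0.08, limma adjusted p = 0.0957), which did not pass the threshold. NRAS Q61K against GFP cells gave −0.03 (SE 0.08, limma adjusted p = 0.951). The drug comparisons gave 0.18 for colony against parental (limma adjusted p = 0.165), 0.19 for resistant against parental (limma adjusted p = 0.118) and 0.01 for resistant against colony (limma adjusted p = 0.936), each with SE 0.08. Without centring the last 2 turned to −0.01 and −0.21. The summit lay upstream of the start, at −682 to −528 bp, in 9 libraries and at 956 bp in resistant 1.

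TFAM, a target of these regulators and the factor that acts in the mitochondrion, passed the test in none of the 5 comparisons by limma. Peaks covered 2597 and 2599 bp in the resistant libraries, 2758 and 2464 bp in the colony libraries, 2813 and 2856 bp in the NRAS Q61K libraries, 3522 and 3028 bp in GFP cells, and 3025 and 3166 bp in the parental libraries. Before centring, the drug-exposed libraries lay below the parental ones with no overlap, a separation whose share over all regions was not counted. Colony against parental cells gave −0.26 (SE 0.10, limma adjusted p = 0.12) and resistant against parental cells −0.04 (SE 0.10, limma adjusted p = 0.768). Resistant against colony cells gave 0.22 (SE 0.10, limma adjusted p = 0.184), a value that centring makes, since it was 0.00 without it. NRAS Q61K against GFP cells gave −0.14 and GFP against parental cells −0.05 (SE 0.10 each, limma adjusted p = 0.535 and 0.834); the second was 0.07 without centring. The summit stayed within 608 to 940 bp downstream of the start in all 10 libraries.

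**Figure D3:**
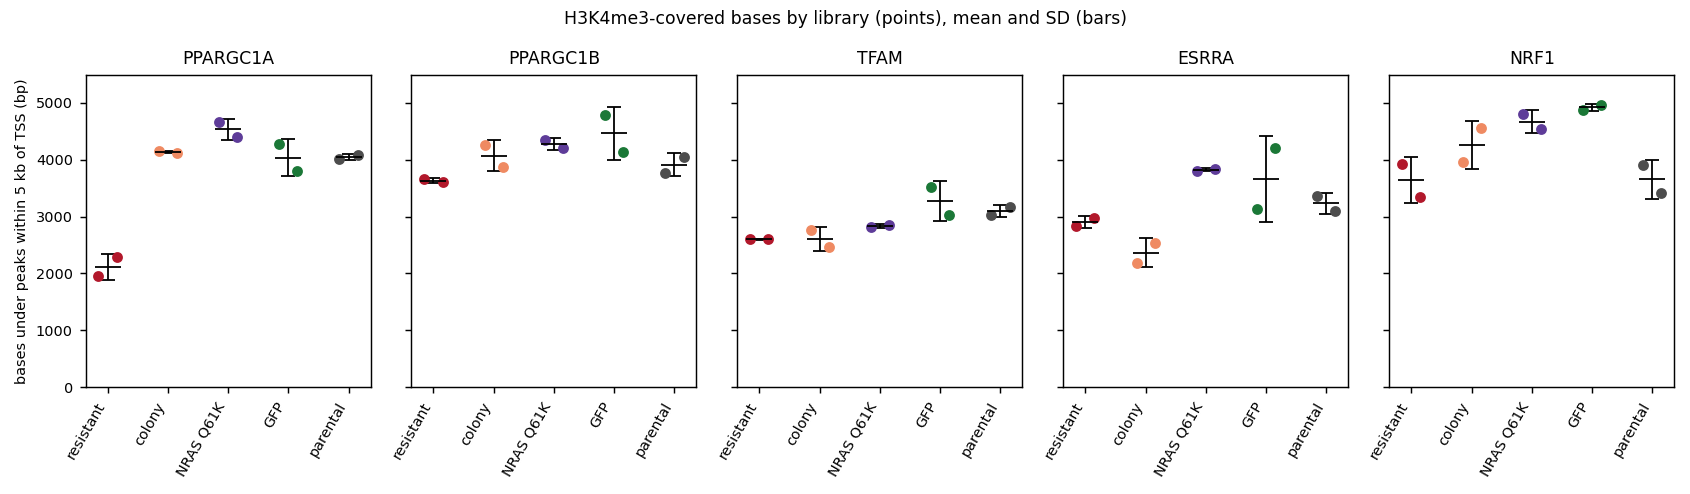
Bases under H3K4me3 peaks within 5 kb of each TSS on the y axis, with points for the 2 libraries of each group and bars for their mean and SD. At PPARGC1A the resistant libraries, 1958 and 2282 bp, lie below the other 8, whose lowest is 3804 bp.

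**Figure D4:**
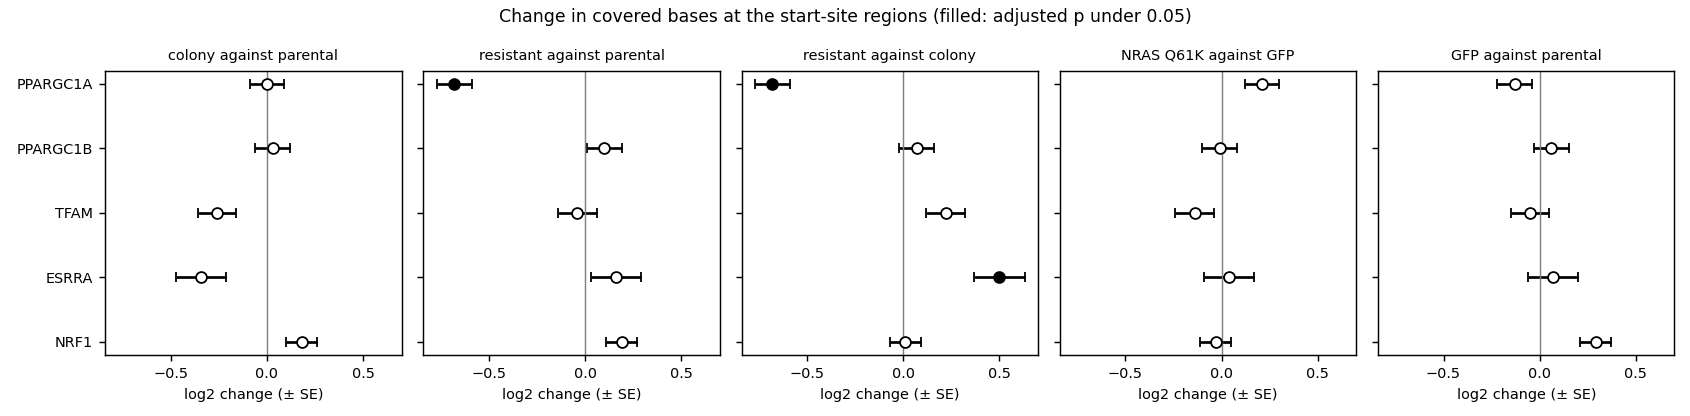
Log2 change in covered bases of the 5 start-site regions, after centring, on the x axis with its SE, in 5 comparisons. Filled points passed the limma threshold: PPARGC1A at −0.68 in both resistant comparisons and ESRRA at 0.50 in resistant against colony cells.

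Of the 5 start-site regions, without the upstream ESRRA region, limma called between 0 and 2 in each drug comparison. In resistant against parental cells 1 of 5 was called, PPARGC1A narrower, beside 28.6% of all regions tested. In resistant against colony cells 2 of 5 were called, PPARGC1A narrower and ESRRA wider, beside 22.5% of all regions. In colony against parental cells limma called 0 of 5, beside 21.0% of all regions, and 2 of 5 (TFAM and ESRRA, both with a negative change) had an unadjusted p under 0.05. With 5 regions, counts of this size are not a result about the set. The median log2 change of the 5 was 0.10 in resistant against parental, 0.07 in resistant against colony and 0.00 in colony against parental cells, beside −0.07, 0.17 and −0.05 over all regions tested.

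The transgene comparisons gave no call by limma among the 5 regions. In NRAS Q61K against GFP cells 7.23% of all regions were called, and 0 of the 5 had an unadjusted p under 0.05. In GFP against parental cells 4.36% of all regions were called, and 1 of the 5, NRF1, had an unadjusted p under 0.05. The median log2 change of the 5 was −0.01 in NRAS Q61K against GFP and 0.06 in GFP against parental cells, beside 0.05 and −0.03 over all regions.

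**Figure D5:**
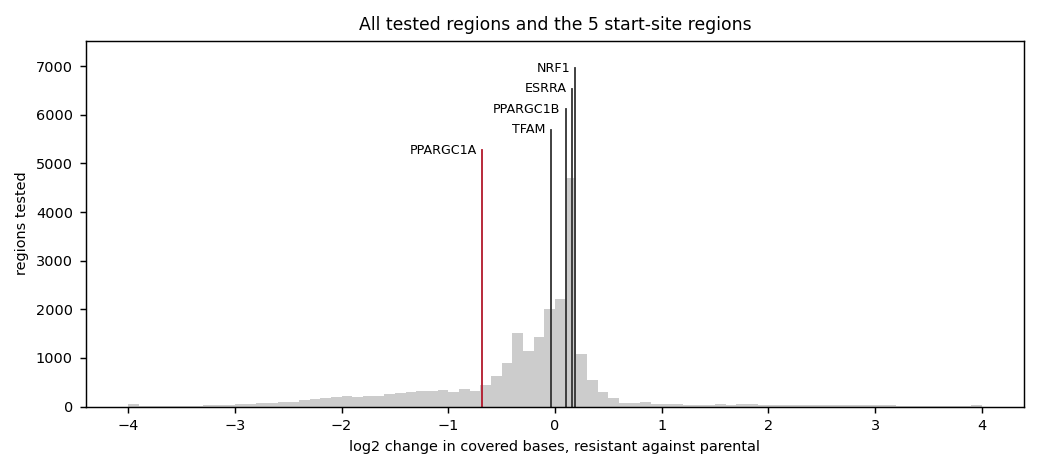
Number of tested regions, on the y axis, by log2 change in covered bases of resistant against parental cells, on the x axis, with the 5 start-site regions as lines; the end bars also hold 54 regions beyond 4 in either direction. PPARGC1A at −0.68 lies left of the main mass, and the other 4 lie between −0.04 and 0.19, or between −0.24 and −0.01 without centring.

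The regions whose covered bases ran most like those of a member were picked by Pearson's r over the 10 libraries among all 23153 regions, as a description. For PPARGC1A the nearest was 14:20936495-20939879, with r = 0.99, which covered 1232 and 1427 bp in the resistant libraries and 2530 to 2850 bp in the other 8. The next was 2:33930895-33940590, with r = 0.988. For the other genes the best r was 0.94 at TFAM (4:30717677-30731093), 0.936 at ESRRA (12:69200275-69204945), 0.896 at NRF1 (5:179122128-179130033) and 0.85 at PPARGC1B (15:90806350-90812738). Each r is over the same 10 libraries, 2 of each group, and carries no test.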

How the data were processed

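H3K4me3 was mapped by chromatin immunoprecipitation and sequencing in WM164 cells; per the labels' protocols, libraries were read as single reads of 50 bp over 8 lanes. Per the submitters' processing notes, which give no roles, the builds were GRCh37 or hg19 and the tools MACS2 2.1.2, deepTools 2.5.4, SAMtools and BWA. Each library has its own list of peaks from the authors. Each deposited peak has a score, a fold (the ratio of its summit over local background), a −log10 p-value and a −log10 q-value, used here only to describe or filter peaks within a list. Depth is unknown, and how inputs and duplicates were handled is not stated in those notes as used here.

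Peaks on the 22 autosomes and X (589 others left out) were merged across libraries over gaps up to 1000 bp. Those marked in 2 or more libraries were tested with limma 3.58.1 (R 4.3.3) on log2(bases under peaks + 200), with a mean per group, a trend of the variance on mean width, and p-values adjusted by Benjamini-Hochberg per comparison (threshold 0.05). Summit reads were solved from the deposited fold and p-value under the Poisson test of MACS2, with 1 added to both sides. The remaining work was done in Python 3.11.15 with pandas 2.3.3, numpy 2.4.6, scipy 1.17.1 and matplotlib 3.10.9. The named regions are the members and, for each, the 2 regions of highest r. The 5 genes, the lists and the tests were chosen with earlier results of these data known. The wider list of pathway genes and the melanocyte markers were not analysed here, since no GRCh37 annotation was at hand. Alternatives are described in the closing section.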

Additional observations from a re-analysis of the deposited data

How the results depend on the processing

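Of 434 log2 changes of the 6 regions under alternatives, 423 kept their side of the threshold, most of them uncalled in both settings. At ESRRA, 9 lost it and 2 gained it. No call reversed, and 42 uncalled in both differed in sign. PPARGC1A stayed past the threshold in 15 of 15 alternatives in resistant against parental cells (log2 change −0.88 to −0.54, limma adjusted p 3.55e-05 to 0.0153) and in 15 of 15 in resistant against colony cells (−0.91 to −0.55, 2.08e-05 to 0.0132). The ESRRA call of resistant against colony cells was also lost without the trend (limma adjusted p = 0.0572). ESRRA at its start was called narrower in colony than in parental cells with lists of equal length (limma adjusted p = 0.0393) and with merging of overlapping peaks only (0.0205). The upstream ESRRA call was lost with separate fits in colony against parental cells (0.0665) and with a pseudocount of 1000 bp in resistant against parental cells (0.223). Too few libraries mark this region for a stricter threshold (10 or more in −log10 q), equal lists or regions in all libraries. These tested the other 5.

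The main fit called 1 of 6 member regions, the upstream ESRRA one, in colony against parental cells and 2 in each resistant comparison. The first count was 0 with the stricter threshold, regions in all libraries or separate fits and 2 of 11 when merging overlapping peaks only. For resistant against parental cells there was 1 with the stricter threshold, equal lists, the larger pseudocount or regions in all libraries, and 1 to 2 when leaving out each library. For resistant against colony cells there was 1 with no centring or no trend, and 1 to 2 when leaving out each library. Overlap-only merging gave 1 each in NRAS Q61K against GFP and GFP against parental cells, a short piece upstream of PPARGC1B. Only GFP cells mark it, so the filter fixed its direction. Calls over all regions follow this order: colony against parental, resistant against parental, resistant against colony, NRAS Q61K against GFP and GFP against parental cells. The main fit gave 4865, 6615, 5202, 1675 and 1010 of 23153. The stricter threshold gave 2061, 3165, 3236, 660 and 419 of 15637. Equal lists gave 2441, 3916, 4462, 642 and 464 of 17058. Regions in all libraries gave 1967, 2709, 3718, 234 and 131 of 12087. Separate fits gave 3021, 5789, 4268, 122 and 20 of 16245 to 22555. Overlap-only merging gave 5200, 7118, 5632, 2833 and 2217 of 29649. In GFP against parental cells the larger pseudocount gave 638, no filter 566, and leaving out each library 602 (without GFP 2) to 988. The causes of these shifts were not tested.

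Same-numbered libraries did not deviate together (r of −0.021 to 0.029 over regions), so the numbers do not pair the samples. The replicate block changed no call of the 6 regions and gave 608 calls over all regions in GFP against parental cells. Group means of covered bases moved by more than 1 SD in 9 of 25 cases with equal lists, 12 with the stricter threshold, 16 with a window of 2 kb and 0 with one of 10 kb. A peak under a library's threshold or shortest length is not seen.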
